A study of Mus musculus with 10 samples.

Results

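The 10 enzymes that handle pyrimidine nucleosides around cytidine deaminase were examined in s.c. Panc02 tumors: cytidine deaminase itself (Cda), deoxycytidylate deaminase (Dctd), the uridine-cytidine kinases Uck1, Uck2 and Uckl1, the phosphorylases Upp1 and Tymp, deoxycytidine kinase (Dck) and the thymidine kinases Tk1 and Tk2. They were chosen by their role in the pathway, were found by gene symbol among the 37417 genes of the count table, and all 10 passed the filter on low counts that left 15299 genes. Panc02 is a mouse pancreatic cancer cell line. Its cells were injected s.c. into C57BL/6J mice labelled wild type, and the tumors were taken on day 16. The labels give the mice an age of 12 weeks without saying on which day, and the study's methods give a younger one. In 5 tumors the injected cells carried a guide RNA against Cda (sgCda), and in the other 5 a nontargeting guide (sgNT). Per the study's methods both groups of cells also carried a doxycycline-inducible Cas9 and had been selected with antibiotics. Clones are described there for a survival experiment, and whether the cells of these tumors were a pool or a clone is not stated for them. The host mouse keeps its own Cda, so each tumor mixed edited cancer cells with unedited host cells.

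Cells make pyrimidine nucleotides from small precursors (de novo synthesis) or recover them from nucleosides (salvage). In salvage, a deaminase turns cytidine into uridine, phosphorylases split uridine or thymidine into base and sugar, and kinases add the phosphate that keeps a nucleoside inside the cell as a nucleotide. Tk1 is known as a cytosolic kinase of dividing cells, whereas Tk2 works in mitochondria and Dck also activates nucleoside drugs such as gemcitabine, which CDA inactivates.

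The guides are shown because they mark where the deaminase gene was targeted, with the adjacent PAM (the motif that Cas9 needs beside its target) in capitals for the guides against Cda.
nontargeting guide: gaacagtcgcgtttgcgact
CDA guide 1: cgctcggcacacacacctagTGG
CDA guide 2: tccagaaggccatctccgaaGGG
Both CDA guides matched exon 2 of the 4 exons of the longest coding Cda transcript. Guide 1 lay at positions 138351247 to 138351266 of chromosome 4 (GRCm38), opposite to the transcript, and guide 2 at 138351219 to 138351238, on the strand of the transcript. The predicted Cas9 cuts, 3 bases from the PAM, fell after coding bases 186 and 228 of 438, which is 42.5% and 52.1% of the way along the coding sequence, and lay 42 bases apart. Exon 2 spans 138351184 to 138351295 and holds 112 bases, with the matches of both guides in capitals (transcript strand, GENCODE annotation of GRCm38).
Cda exon 2: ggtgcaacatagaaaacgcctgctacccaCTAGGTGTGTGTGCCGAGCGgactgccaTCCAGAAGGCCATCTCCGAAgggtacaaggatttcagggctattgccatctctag
No guide of the 3 had an exact match in a transcript of any other gene. The study's text gives the name sgCda to guide 2, and the sample labels give no guide number. The exon is 13.2% of the transcript. A gene count sums reads over every exon, so the Cda count is not a measure of the edit. The study checked the targeting in the cells by quantitative PCR, with primers in the targeted region, and by immunoblot. In cells sorted from such tumors it reports Cda transcript in cancer and endothelial cells and some in fibroblasts.

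Libraries held 28051907 to 39484964 counts assigned to genes, and a floor of 3 counts corresponds to 0.0760 to 0.107 CPM (counts per 1e6 counts). CPM are given relative to library sizes scaled by trimmed mean of M values (TMM), and every salvage enzyme stood above that floor in every tumor, the lowest count being 150 (Tymp). Lists of marker genes were summed per tumor. The 8 epithelial genes summed to 592 to 924 CPM (sgNT) or 571 to 1017 CPM (sgCda). Most of this sum came from Krt8 (means 476 in sgNT and 452 CPM in sgCda) and Krt18 (230 and 228 CPM). Epcam (1.03 and 1.77 CPM), Krt7 (0.472 and 0.893 CPM) and Cldn7 (1.30 and 1.36 CPM) were weak. Cldn4 had 0 counts in 8 of the 10 tumors (mean 0.113 CPM). Macrophage genes summed to 2675 to 3749 and 2569 to 3783 CPM, and endothelial genes to 135 to 197 and 118 to 195 CPM. Skeletal muscle genes ran from 1.71 to 466 CPM (sgNT) or from 1.49 to 1889 CPM (sgCda), highest in sgCda replicate 3. The share of reads outside genes was 10.3% to 18.4%, highest in sgCda replicate 4.

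Transcripts of the deaminase itself were counted first, as the guide was aimed at this gene (ENSMUSG00000028755, chromosome 4, 138338424 to 138367992, minus strand). Cda stood at 10.1, 11.7, 12.8, 14.7 and 11.1 CPM in sgNT replicates 1 to 5, a mean of 12.1 ± 1.76 CPM (SD, n = 5). In sgCda replicates 1 to 5 it stood at 8.34, 8.43, 12.1, 7.48 and 12.5 CPM, averaging 9.77 ± 2.34 CPM (SD, n = 5). The sgCda replicates numbered 1, 2 and 4 were lower than any sgNT tumor, while numbers 3 and 5 fell among the sgNT values. The pathway genes Cad and Uprt also had 3 sgCda tumors below the sgNT range, and the share over all genes was not counted. Expressed as sgCda over sgNT, the log2 fold change of Cda came to −0.30 (SE 0.17, 95% CI −0.67 to 0.06), and the difference did not pass the test (edgeR quasi-likelihood test, unadjusted p = 0.0963, adjusted p = 0.9996). Leaving out each tumor in turn moved it between −0.41 and −0.22. It was −0.39 without sgCda replicate 3 (edgeR, unadjusted p = 0.0376, adjusted p = 0.8185) and −0.41 without sgCda replicate 5 (edgeR, unadjusted p = 0.0347, adjusted p = 0.9978), but −0.22 without sgCda replicate 4 (edgeR, unadjusted p = 0.205) and −0.23 without sgNT replicate 4 (edgeR, unadjusted p = 0.219). A bulk library cannot tell fewer cells that make a transcript from less transcript per cell, for this gene or for those that follow.

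The other deaminase, Dctd (ENSMUSG00000031562, chromosome 8, 48099092 to 48153233), acts on deoxycytidylate, a nucleotide, and not on the nucleoside. Its sgNT levels were 8.63, 9.51, 10.04, 14.8 and 10.7 CPM, a mean of 10.7 ± 2.41 CPM (SD, n = 5). Its sgCda levels were 8.55, 9.52, 15.6, 11.7 and 10.3 CPM, a mean of 11.1 ± 2.73 CPM (SD, n = 5). The groups overlapped, with sgNT replicate 4 and sgCda replicate 3 standing above the rest. A log2 fold change of 0.05 was estimated (SE 0.19, 95% CI −0.36 to 0.46), and its sign turned without sgCda replicate 3 (−0.10) or sgNT replicate 1 (−0.02).

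**Figure D1:**
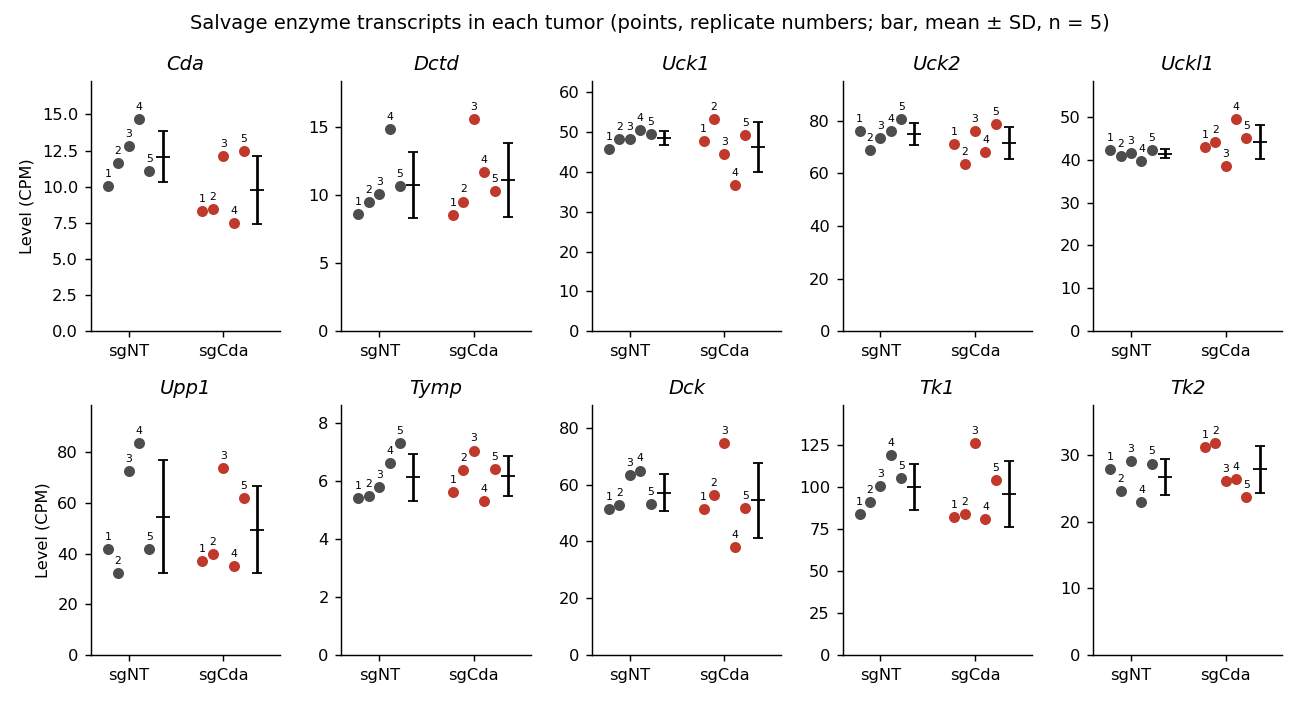
Level of each salvage enzyme in CPM (vertical axes, from 0) in the 5 sgNT (grey) and 5 sgCda (red) tumors, with replicate numbers beside the points and the mean ± SD (n = 5) as a bar to the right of each group. The groups overlap for all 10 enzymes, and for Cda 3 sgCda tumors lie under the sgNT range and 2 inside it.

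The kinases of uridine and cytidine were among the steadiest of the enzymes. Uck1 (chromosome 2, 32255002 to 32260159) stood at 45.7, 48.3, 48.4, 50.4 and 49.5 CPM in sgNT tumors and at 47.7, 53.2, 44.4, 36.7 and 49.2 CPM in sgCda tumors. The means were 48.5 ± 1.77 and 46.2 ± 6.22 CPM (SD, n = 5 each), and sgCda replicate 4 was the low value that widened the second group. With all tumors the log2 fold change came to −0.07 (SE 0.09, 95% CI −0.27 to 0.13), and without sgCda replicate 4 to 0.006. Uck2 (chromosome 1, 167222883 to 167285320), which like Uck1 turns uridine and cytidine into UMP and CMP, stood at 76.2, 69.0, 73.3, 76.0 and 80.6 CPM in sgNT and at 71.3, 63.4, 76.2, 68.3 and 78.6 CPM in sgCda tumors. The means were 75.0 ± 4.29 and 71.6 ± 6.08 CPM (SD, n = 5 each), with 3 sgCda values inside the sgNT range. Its interval was among the narrowest, from −14.5% to 6.4% around a change of −4.6%.

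The kinase-like gene Uckl1 (chromosome 2, 181569149 to 181584892) was the member whose sgCda tumors lay most often above the sgNT range. Its sgNT levels were 42.4, 41.0, 41.5, 39.8 and 42.3 CPM, and its sgCda levels were 43.0, 44.2, 38.5, 49.5 and 45.2 CPM. The means were 41.4 ± 1.07 and 44.1 ± 3.94 CPM (SD, n = 5 each), and 4 sgCda tumors were above all sgNT tumors while replicate 3 was below all of them. This gave a log2 fold change of 0.09 (SE 0.07, 95% CI −0.06 to 0.24), which did not pass the test (edgeR, unadjusted p = 0.208). Without sgCda replicate 3 it was 0.14 (edgeR, unadjusted p = 0.0420, adjusted p = 0.8185), and without sgCda replicate 4 it was 0.05 (edgeR, unadjusted p = 0.425). Of its exonic bases 9.9% lie opposite an antisense gene, Uckl1os, and 1.4% are shared with Zfp512b on its own strand.

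The phosphorylases differed from each other in spread. Upp1 (chromosome 11, 9118103 to 9136170), which splits uridine, stood at 41.9, 32.5, 72.8, 83.7 and 41.8 CPM in sgNT tumors. In sgCda tumors it stood at 37.2, 39.7, 73.6, 34.9 and 61.8 CPM. In both groups some tumors stood far above the others, sgNT replicates 3 and 4 and sgCda replicates 3 and 5, and the highest tumor was 2.58 times the lowest in sgNT and 2.11 times in sgCda. All 5 sgCda values lay within the sgNT range. The log2 fold change of −0.14 had the widest interval of the 10 enzymes, −0.79 to 0.51, which is a change of −42.0% to 41.9%. Without sgNT replicate 4 it was 0.06.

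Tymp (chromosome 15, 89371931 to 89377039), which splits thymidine, was the enzyme with the fewest counts, 150 to 291 per library. It stood at 5.43, 5.50, 5.80, 6.63 and 7.31 CPM in sgNT and at 5.63, 6.39, 7.05, 5.31 and 6.42 CPM in sgCda tumors, with means of 6.13 ± 0.814 and 6.16 ± 0.691 CPM (SD, n = 5 each). The means lay within 1 SD of each other, with a log2 fold change of 0.007 (95% CI −0.28 to 0.29), whose sign turned without sgNT replicate 1, 2 or 3 or sgCda replicate 2, 3 or 5 (down to −0.047). Of its exonic bases 42.0% are shared with Sco2 on the same strand and 26.3% lie opposite Ncaph2, so its level is uncertain.

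Among the kinases of deoxynucleosides, Dck (chromosome 5, 88764996 to 88783281), which phosphorylates deoxycytidine, stood at 51.3, 52.9, 63.4, 65.02 and 53.1 CPM in sgNT tumors. In sgCda tumors it stood at 51.5, 56.2, 74.8, 38.01 and 51.9 CPM. The lowest and the highest Dck level of all 10 tumors were thus both in the sgCda group, in replicates 4 and 3, and the log2 fold change of −0.07 (SE 0.15, 95% CI −0.40 to 0.27) became 0.04 without replicate 4. Tk1 (chromosome 11, 117815526 to 117826092) stood at 83.7, 91.0, 100.5, 118.9 and 105.5 CPM in sgNT and at 82.3, 84.0, 126.3, 81.2 and 104.3 CPM in sgCda tumors. The means were 99.9 ± 13.6 and 95.6 ± 19.6 CPM (SD, n = 5 each), for a log2 fold change of −0.06 (SE 0.14, 95% CI −0.37 to 0.24), or 0.002 without sgNT replicate 4. The mitochondrial kinase Tk2 (chromosome 8, 104226685 to 104248558) stood at 27.9, 24.7, 29.2, 23.02 and 28.8 CPM in sgNT tumors. In sgCda tumors it stood at 31.3, 31.9, 26.2, 26.5 and 23.7 CPM, with replicates 1 and 2 above the sgNT range, for a log2 fold change of 0.06 (SE 0.10, 95% CI −0.16 to 0.29).

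Of the 10 enzymes, 0 had an adjusted p under 0.05 with edgeR, where the share among all 15299 genes was also 0 percent. At an unadjusted p under 0.05 there were 0 of 10 enzymes against 2.50% of all genes (1.54% higher and 0.954% lower in sgCda), and no enzyme had groups that did not overlap, against 0.601% of all genes (0.307% higher and 0.294% lower). DESeq2 and limma-voom also called 0 of the 10 at either threshold, whereas limma-voom with sample quality weights gave Cda an unadjusted p of 0.0231 (adjusted p = 0.9732). With those weights the share of all genes with an unadjusted p under 0.05 was 4.70%. Fold changes were positive for 4 enzymes and negative for 6, with a median of −0.07 on the log2 scale, beside 0.01 for all genes. The median size of a change, whatever its sign, was 0.07 for the enzymes and 0.08 for all genes. Cda had the largest estimate of the 10.

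**Figure D2:**
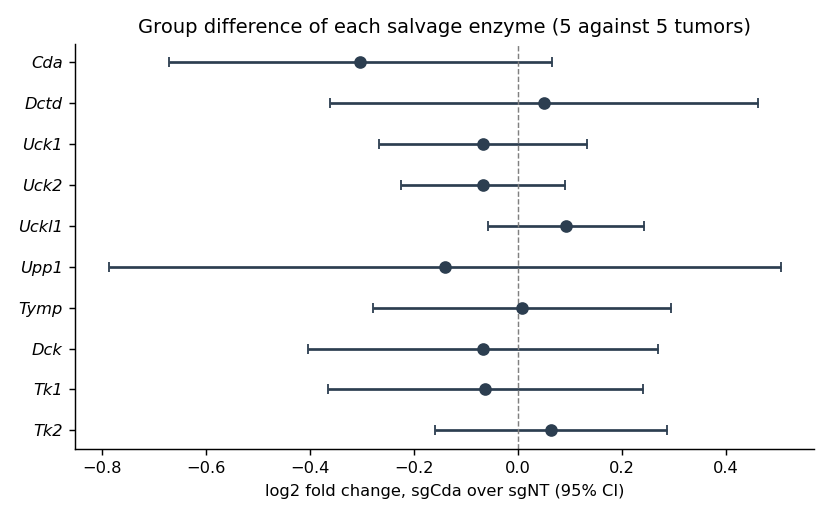
Estimated log2 fold change of sgCda over sgNT tumors for each salvage enzyme (points) with its 95% confidence interval (lines), from the edgeR fit of 5 against 5 tumors; the dashed line marks no difference. All 10 intervals include 0, the interval of Upp1 being the widest and that of Cda running from −0.67 to 0.06.

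Since the enzymes share or pass on substrates, the level of Cda was also set against others within each tumor, as a log2 ratio of CPM. Cda over Uckl1 was −1.79 ± 0.24 in sgNT and −2.20 ± 0.43 in sgCda tumors, and Cda over Dctd was 0.18 ± 0.16 and −0.19 ± 0.34 (SD, n = 5 each). Cda over Dck was −2.25 ± 0.08 and −2.48 ± 0.28. Cda over Uck1 was −2.02 ± 0.17 and −2.26 ± 0.34, and Cda over Uck2 was −2.65 ± 0.23 and −2.90 ± 0.25. The group ranges overlapped for each of these ratios. Tk1 over Tk2, the cytosolic against the mitochondrial kinase, was 1.90 ± 0.29 and 1.76 ± 0.41, and its ranges overlapped too.

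To set the enzymes against each other, levels were divided by the exonic length of each gene (all annotated exons merged), giving CPM per kb of exon. Averaged over all 10 tumors, Upp1 was highest at 26.5 CPM per kb, followed by Tk1 at 18.8, Uck1 at 17.2, Dck at 14.8, Uck2 at 13.4 and Cda at 10.5. Uckl1 (9.23), Tk2 (7.65), Dctd (3.20) and Tymp (3.02 CPM per kb) followed. The place of Tymp beside Dctd is uncertain, as 42.0% of its exonic bases are shared with Sco2. The ranges of neighbours in this order overlapped, except for Tk2 and Dctd, whose means differed 2.39-fold. Within tumors, Uckl1 was above Tk2 in 10 of 10 although their ranges overlapped (means 1.21-fold apart). Upp1 was above Tk1 in 9 of 10 tumors, Cda above Uckl1 in 7, and Dctd above Tymp in 5. The order depends on the length used: divided by the longest coding transcript, Tk1 came first at 67.9 CPM per kb, Upp1 next at 40.7, and Cda was the seventh at 12.9. The level of Upp1 varied most between tumors, with a coefficient of variation of 36.5% over all 10, followed by Dctd (22.3%) and Cda (21.0%), and Uckl1 (7.19%) and Uck2 (7.21%) varied least.

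**Figure D3:**
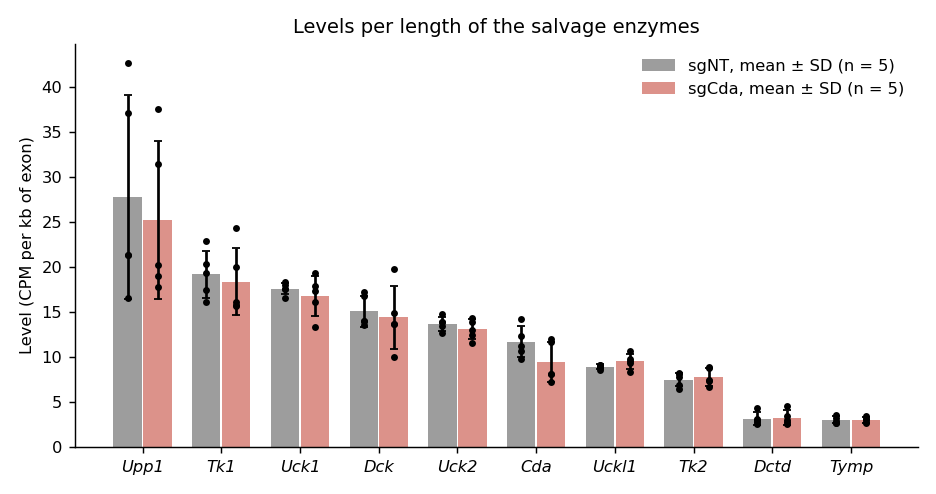
Level per length of each salvage enzyme, in CPM per kb of exon (vertical axis, from 0), as the mean ± SD (n = 5) of sgNT (grey) and sgCda (red) tumors, with each tumor as a point. Upp1 stands highest and spreads most, Dctd and Tymp lie near 3 CPM per kb, and the sgNT and sgCda bars overlap within their errors for every enzyme.

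The spread within a group was shared by several enzymes. Among sgNT tumors, replicate 4 held the highest level of 6 enzymes (Cda, Dctd, Uck1, Upp1, Dck and Tk1), and replicate 1 the lowest of 6 (Cda, Dctd, Uck1, Tymp, Dck and Tk1). Among sgCda tumors, replicate 3 held the highest level of 5 (Dctd, Upp1, Tymp, Dck and Tk1), and replicate 4 the lowest of 6 (Cda, Uck1, Upp1, Tymp, Dck and Tk1). Uckl1 went the other way, lowest in sgNT replicate 4 and sgCda replicate 3 and highest in sgNT replicate 1 and sgCda replicate 4. SgCda replicate 3 is the tumor with the most skeletal muscle RNA and sgCda replicate 4 the library with the most reads outside genes. SgNT replicate 4 had the most keratinocyte RNA of all (25.3 CPM) and the most skeletal muscle RNA of its group (466 CPM). The part of any of these in the enzyme levels was not tested.

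Each enzyme was related over the 10 tumors to the mean log2 CPM of 5 marker lists (proliferation, epithelial, macrophage, endothelial and skeletal muscle), 50 relations in all. None of the lists holds a salvage enzyme. Tk1 moved most closely with the 12 proliferation genes (n = 10, Pearson r = 0.95, permutation p = 0.00012, adjusted 0.006; Spearman rho = 0.87, permutation p = 0.00231, adjusted 0.115). Cda came next (n = 10, Pearson r = 0.87, permutation p = 0.00125, adjusted 0.0312; Spearman rho = 0.79, permutation p = 0.00926, adjusted 0.216). These 2 of the 50 relations passed by Pearson's r after adjustment, and 0 passed by Spearman's rho. Without the 2 tumors farthest from the median of the list r was 0.93 for Tk1 and 0.93 for Cda, and with the group means removed it was 0.95 and 0.92. Leaving out each tumor in turn, Tk1 passed in all 10 fits, whereas for Cda r stayed between 0.83 and 0.94 and the adjusted permutation p (n = 9) was over the threshold in 7 of 10 fits, without sgNT replicate 1, 2, 4 or 5 or without sgCda replicate 1, 2 or 4, the highest being 0.0907. Both axes come from the same 10 libraries, and other genes move with such a list too: 2.36% of 15287 genes had a higher r with it than Cda, and 0.451% a higher r than Tk1. A group of 5 is too small for an r of its own.

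**Figure D4:**
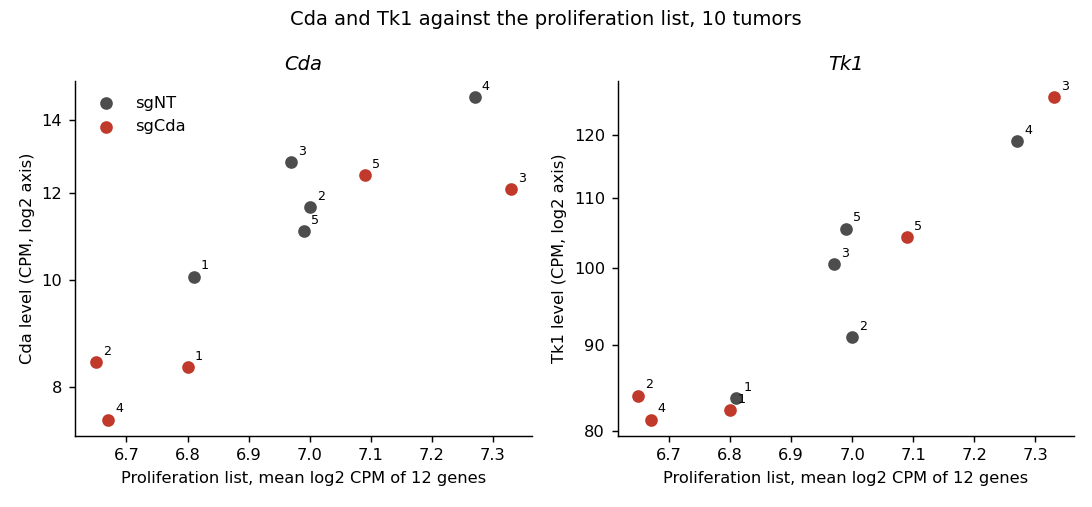
Levels of Cda (left) and Tk1 (right) in CPM on log2 vertical axes against the mean log2 CPM of 12 proliferation genes, for 5 sgNT (grey) and 5 sgCda (red) tumors with their replicate numbers. Both enzymes are low in sgCda replicates 1, 2 and 4 and high in sgNT replicate 4, and Tk1 is highest in sgCda replicate 3. Pearson's r over the 10 tumors is 0.87 for Cda and 0.95 for Tk1.

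The proliferation list itself (mean log2 CPM of its genes) averaged 7.01 ± 0.17 for the sgNT group and 6.91 ± 0.29 for the sgCda group (SD, n = 5 each). Of its 12 genes 11 had negative fold changes, the lowest being −0.17 on the log2 scale. None of them passed the test (edgeR, smallest unadjusted p = 0.377). With this score as a covariate in the edgeR fit, a setting chosen after seeing the data, the log2 fold change of Cda was −0.21 (SE 0.09, 95% CI −0.42 to −0.01), with an unadjusted p of 0.0444 and an adjusted p of 0.9981. In that fit 3.32% of all genes had an unadjusted p under 0.05, and 0 passed after adjustment. That of Tk1 was 0.02 (edgeR, unadjusted p = 0.767).

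For the other enzymes the relation with proliferation genes ran from r = −0.74 to 0.76 over 10 tumors, and none passed after adjustment. Upp1 (0.76), Dck (0.73), Dctd (0.72), Uck2 (0.65), Tymp (0.60) and Uck1 (0.21) had positive values, and Uckl1 (−0.74) and Tk2 (−0.66) negative ones. Dck had an r of 0.77 with macrophage genes, which was 0.27 without the 2 tumors farthest from the median of that list. Uck2 and Uckl1 had values of 0.73 and −0.74 with endothelial genes, and of 0.70 and −0.49 without the 2 tumors farthest from that list's median. With skeletal muscle genes the values ran from −0.40 (Uckl1) to 0.59 (Dck), and that of Cda was 0.01. With epithelial genes they ran from −0.21 (Uck2) to 0.47 (Uck1), with 0.18 for Cda. Without the 2 tumors farthest from the epithelial median they ran from −0.52 (Tk2) to 0.87 (Upp1), with 0.61 for Cda. With the group means removed, Cda had 0.51. No p was computed for values without 2 tumors. The epithelial mean gives a weak gene such as Krt7 (mean log2 CPM −0.75) the same weight as Krt8 (8.83).

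**Figure D5:**
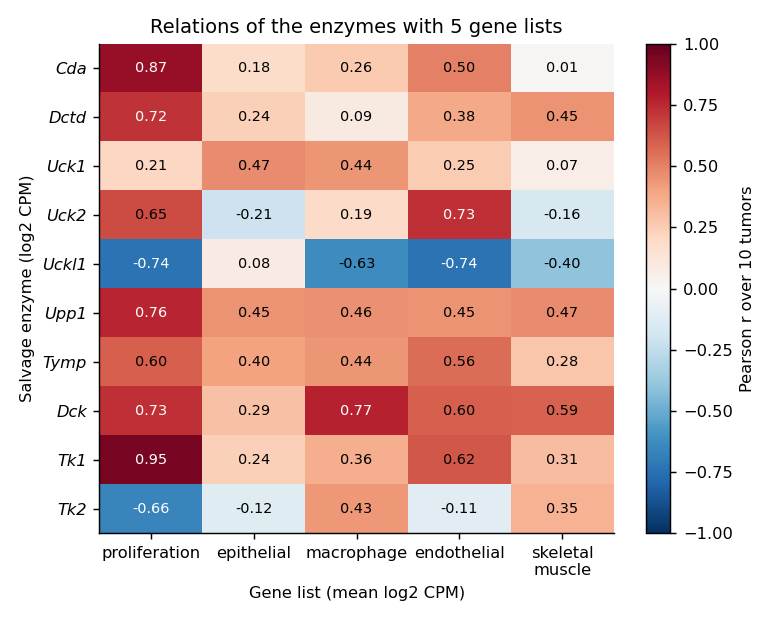
Pearson's r over 10 tumors between the log2 CPM of each salvage enzyme (rows) and the mean log2 CPM of each of 5 marker lists (columns), printed in the cells and coloured from −1 (blue) to 1 (red). The proliferation column holds the highest values, 0.95 for Tk1 and 0.87 for Cda, and Uckl1 and Tk2 are negative in it. In the epithelial column, whose mean weighs its 7 genes alike, Cda has 0.18.

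Over all genes with a mean log2 CPM of at least 0, the genes most like Cda across the 10 tumors were Ccnb2, a mitotic cyclin (Pearson r = 0.966), Alg9, a mannosyltransferase of N-glycan assembly (0.947), and Nek2, a mitotic kinase (0.942). The genes most like Upp1 were Kcnn4, a calcium-activated potassium channel (0.985), Kcmf1, a ubiquitin ligase (0.975), and Tnfrsf9, the costimulatory receptor 4-1BB (0.968). These are the highest of 13269 values each and are given as a description.

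Other genes of pyrimidine metabolism were taken from a list of 30, of which 27 passed the filter on low counts. With edgeR 0 of the 27 had an adjusted p under 0.05. Without adjustment 1 of them was under that threshold, beside 2.50% of all genes, so that this count is near the background. Their fold changes were positive for 8 and negative for 19, beside 8094 positive and 7205 negative over all genes, with a median of −0.04 beside 0.01. The gene under the unadjusted threshold was Uprt, related to the enzyme that returns uracil to UMP, which averaged 27.1 ± 1.59 CPM for sgNT against 22.6 ± 3.33 CPM for sgCda (SD, n = 5 each), a log2 fold change of −0.26 (SE 0.10; edgeR, unadjusted p = 0.0233, adjusted p = 0.9996). Of its sgCda tumors 3 lay below the sgNT range. Of the enzymes of de novo synthesis, Cad, which carries out the first steps, stood at 84.2 ± 10.2 and 76.6 ± 18.0 CPM (SD, n = 5 each), a log2 fold change of −0.14 (95% CI −0.46 to 0.18). Dhodh, the mitochondrial step, had a log2 fold change of −0.05 (SE 0.11), and Umps, which completes UMP, −0.07 (SE 0.13).

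Downstream of the nucleoside kinases, Cmpk1, which phosphorylates UMP and CMP, had a log2 fold change of 0.002 (SE 0.13), and Ctps, which makes CTP from UTP, −0.06 (SE 0.16). On the thymidylate branch, Tyms, which makes dTMP from dUMP, stood at 60.6 ± 6.61 and 60.4 ± 10.5 CPM (SD, n = 5 each), and Dtymk, which phosphorylates dTMP, had a log2 fold change of −0.005. Dut, which hydrolyses dUTP, had −0.08, the ribonucleotide reductase subunit Rrm2 −0.04 (SE 0.17), and the pyrimidine nucleotidase Nt5c3 −0.08. None of these passed the test. Upp2, the second uridine phosphorylase, was counted at 4.74 ± 0.374 and 5.05 ± 0.794 CPM (SD, n = 5 each). Dpyd and Dpys, which catalyse successive steps in the breakdown of uracil and thymine, had 67 and 61 counts in all 10 libraries together. Nme3, a nucleoside diphosphate kinase, had 0, so these 3 genes were not tested. Overlap with other genes was examined only for the 10 enzymes, so a count of 0 for Nme3 need not mean that its transcript was absent. Dpys and Nme3 are named here after their values were seen.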

How the data were processed

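RNA-seq of 10 tumors was used, with groups and replicate numbers taken from the sample titles. The authors deposited raw gene counts, which were used without change. Per the study's methods and the submitters' processing notes, polyadenylated RNA was made into stranded libraries, read quality was checked with FastQC 0.11.5, reads were aligned to mm10 (GRCm38) with TopHat and Bowtie2, and HTSeq (version written as 07.2) counted reads per gene. The strand setting and annotation release are not given in the sources used here. Assigned counts were 28051907 to 39484964 per tumor, and their number limits precision through counting error.

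Genes were filtered with filterByExpr (minimum count 10, minimum total 15), scaled by TMM and tested with edgeR's quasi-likelihood test (edgeR 4.0.16, R 4.3.3), sgCda over sgNT, all 10 tumors, no covariate. P values were adjusted by Benjamini-Hochberg over 15299 genes. The test was tried on simulated counts, with calls at an adjusted p under 0.05. It recovered 71 of 200 genes changed 1.5-fold and 118 of 200 changed 2-fold, with 1 false call each. It called 0 genes where no change was planted. Changes of such size can thus be missed with these groups. Standard errors were taken from the F statistics. The 5 summary lines of HTSeq were left out, and 0 columns belonged to no sample. Within a group, no 2 libraries agreed within sampling noise. The tumors came from separate mice.

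Relations used log2 CPM (prior count 2) and two-sided permutation tests with 100000 resamples, adjusted over the 50 relations. Gene positions and exon lengths came from GENCODE of GRCm38, and guide sequences from the study's supplement. Named genes were the 10 enzymes, 13 genes of the pathway chosen by role, any gene of that list with an adjusted p under 0.05, and the 3 genes most like Cda and most like Upp1. The enzymes, lists and tests were chosen with earlier results of these data known. Alternatives were DESeq2's size factors, library totals, other filters, DESeq2 1.42.0, limma-voom (limma 3.58.1) with and without quality weights, a replicate block, removal of each tumor and, chosen after seeing the data, the proliferation score as a covariate. Lists for neutrophils, T cells, fibroblasts and keratinocytes were also summed. Neutrophil genes reached 60.1 to 112 CPM in sgNT and 57.2 to 157 CPM in sgCda tumors, T cell genes 260 to 414 and 185 to 599, fibroblast genes 3007 to 5811 and 3264 to 4994, and keratinocyte genes 4.28 to 25.3 and 3.50 to 5.67 CPM.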

Additional observations from a re-analysis of the deposited data

How the results depend on the processing

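Under all 19 alternatives 0 genes had an adjusted p under 0.05, and the fold changes of Cda (−0.405 to −0.214), Uck2, Uckl1 and Tk2 kept their sign, while those of the other 6 enzymes turned under at least 1 alternative. The log2 fold change of Tymp was −0.004 with DESeq2 size factors, −0.011 with a filter of 1 count in any tumor and −0.031 with limma-voom quality weights, which also gave −0.121 for Dctd and 0.005 for Uck1. With the proliferation covariate it was 0.002 for Upp1 and 0.018 for Tk1. Leaving out each tumor in turn, the ranges were −0.103 to 0.189 for Dctd, −0.12 to 0.006 for Uck1, −0.33 to 0.06 for Upp1, −0.047 to 0.078 for Tymp, −0.209 to 0.039 for Dck and −0.185 to 0.002 for Tk1, and without a change of sign −0.104 to −0.025 for Uck2 (nearest 0 without sgCda replicate 2), 0.048 to 0.136 for Uckl1 (without sgCda replicates 4 and 3) and 0.009 to 0.116 for Tk2 (without sgNT replicate 4 and sgCda replicate 5).

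The number of salvage enzymes with an unadjusted p under 0.05 was 0, but 1 (Cda) with quality weights, 1 (Cda) with the covariate, and 0 to 2 leaving out each tumor (2, Cda and Uckl1, without sgCda replicate 3). Over all genes the unadjusted count of 382 of 15299 became 830 of 26302 with a filter of 1 count in any tumor, 719 with quality weights and 280 to 747 leaving out each tumor, 747 being without sgCda replicate 3. Relations that passed numbered 1 to 4 leaving out each tumor, 4 without sgCda replicate 5 (Tk1, Cda and Uckl1 with proliferation genes, Uck2 with endothelial genes). The causes were not tested.

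Replicate numbers recur in both groups, but deviations of tumors with the same number correlated from −0.427 to 0.343, over 0.1 in 2 of 5 pairs, so the numbers were not taken as pairing. With the number as a replicate block the log2 fold change of Cda was −0.321 (edgeR, unadjusted p = 0.0993), 0 genes passed after adjustment and 325 had an unadjusted p under 0.05. Of the sgNT tumors, 2 of 5 correlated best with the sgCda tumor of their own number. Groups of 5 limit precision: the median 95% interval of the enzymes extends 0.295 to either side of the log2 fold change.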
